A study of Drosophila melanogaster with 8 samples.

Results

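The mRNAs of the cytosolic translation factors, which load ribosomes onto messages and move them along, were compared between exosomes of Drosophila S2 cells and the cells that released them. Members were taken by symbol from the gene table, as the genes named eIF or eEF (also under the older names Ef1alpha, Ef1beta, Ef1gamma, EF2 and Ef2b) together with pAbp and Trip1. This gave 53 of 14012 genes, of which 44 passed the filter for testing (a value above 1 in at least 4 libraries). S2 is an established line grown from embryos, with features of macrophage-like blood cells, and exosomes are small vesicles that cells shed into their medium. Polyadenylated RNA was sequenced from 4 exosome libraries and 4 cell libraries, with RNA from a column kit for small samples and directional libraries. No treatment, genotype or stage separates the groups, which share the cell line and differ in the source of the RNA. The submitters describe 4 separate experiments but nothing ties them to separate cultures, so p-values reflect library-to-library spread, part of which may be technical.

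Initiation starts when eIF2 brings the initiator tRNA to the small ribosomal subunit, where eIF1, eIF1A and eIF3 are bound. The eIF4 proteins recognise the cap of the mRNA, unwind its leader and, through the poly(A)-binding protein pAbp, hold its tail close to its cap. eIF5, eIF5B and the release of eIF6 allow the large subunit to join, after which eEF1 delivers each aminoacyl-tRNA and eEF2 moves the ribosome by one codon. In mammals the mRNAs of elongation factors and of the poly(A)-binding protein belong to the same growth-controlled class as those of ribosomal proteins. Growing cells carry these messages in large amounts. A message found in vesicles need not be translated there, and RNA levels say nothing of the proteins.

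All values below are the authors' FPKM (fragments relative to transcript length and sequencing depth), summed over the transcripts of a gene and rescaled so that each library sums to 1000000, as TPM does, and they are called TPM here. Where 4 values are listed for exosomes and 4 for cells, they belong to libraries 1 to 4 of each source in that order. TPM values are shares of a library, so they do not give the amount of a message per vesicle or per cell, and a smaller number of vesicles cannot be told apart from less RNA in each. The sums of the deposited columns differed by 12.5-fold. From the steps between low values, about 99200 fragments were estimated in exosome library 2, and between 1950000 and 6470000 in exosome libraries 3 and 4 and cell libraries 2 to 4. Exosome library 1 and cell library 1 showed no such steps, so their depth is unknown. Exosome library 1 stood apart: 3028 of the 6767 genes tested (44.7%) were listed at 0 in it, among them 369 of 907 genes (40.7%) with a mean cell level of 100 TPM or more. A value of 0 there can be a failed estimate, and the log2 differences of the members below are given with and without this library. Exosome library 2 listed 54.7% of the tested genes at 0. Of 12 plasmatocyte and S2 marker genes matched, 11 were tested and none was called, and their summed share was between 0.0172% and 0.0837% in exosome libraries and between 0.0308% and 0.713% in cell libraries. Hml, a hemocyte marker, reached 112 TPM in cell library 1 and at most 6.29 elsewhere. Among 19 markers of other cell types, the crystal cell marker PPO1, the fat body marker Lsp2 and the ovarian marker tj were at 0 in all 8 libraries. Others were not: the fat body gene Fbp2 reached 42.3 TPM in cell library 3 and the germline gene aub 22.8 in exosome library 2. The summed share of the 19 was at most 0.00404% in exosome libraries and 0.00712% in cell libraries.

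In both sources the translation factor mRNAs were abundant, and no member passed the test for a difference between exosomes and cells. limma called 0 of the 44 tested members (adjusted p between 0.569 and 1.0), against a background of 0.0% of the 6767 genes tested in either direction. At an unadjusted p under 0.05, 0 members were higher and 0 were lower in exosomes, where 8 genes (0.118%) were higher and 446 genes (6.59%) were lower over the whole table. Complete separation of the 4 exosome from the 4 cell values was seen for pAbp, which was above in every exosome library, where 10 genes (0.148%) separated in that direction. No member was below in every exosome library, where 230 genes (3.4%) were. With ranks within the library in place of values, pAbp and eIF1 separated upwards, against 91 genes (1.34%), and no member separated downwards, against 195 genes (2.88%).

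The log2 difference (exosome minus cell, on the scale of log2 of TPM plus 1, which understates the change of low genes) had a median of -0.04 over the 44 members and of -1.18 over all genes tested, and 29 of the 44 members (65.9%) were above the median of all genes. Over all genes tested, 1036 differences were above 0 and 5731 below, and over the members 20 and 24. The medians moved with the scaling. With quantile normalization the median of all genes was 0.13 and that of the members 0.31, and 24 of 44 members (54.5%) were above the median of all genes. With FPKM as deposited the medians were -1.01 and -0.02, and 24 of 43 members were above. Without exosome library 1 the medians were -0.77 and 0.02, and 38 of 44 members (86.4%) were above. Without exosome library 2 they were -0.88 and -0.05, and 25 of 44 members (56.8%) were above. Leaving out any other single library put 61.4% to 68.2% of the members above. The filter mattered as well. With every gene above 0 in at least 1 library, the medians were -0.63 and -0.01, and 26 of 49 members (53.1%) were above. Zeros were unequally shared in exosome library 2. There 4 of 44 members (9.09%) were listed at 0, against 54.7% of all tested genes. In exosome library 1, 19 of 44 members (43.2%) and 44.7% of all tested genes were at 0. The members are abundant, so genes of like level are a closer comparison. At a mean cell level of 100 TPM or more, 0 of 28 members and 104 of 907 genes (11.5%) were at 0 in exosome library 2. In exosome library 1 these were 9 of 28 members (32.1%) and 369 of 907 genes (40.7%). The part of these zeros in the gap between the medians of members and all genes was not tested.

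Exosome library 1 divided the members. The 19 members listed at 0 in it had a median log2 difference of -1.78 with all libraries and of -0.09 without it, when 9 of the 19 were above 0. The other 25 had a median of 0.27, and 20 of them (80.0%) were above 0, but without that library their median was 0.043 and 14 of them (56.0%) were above 0. The value in exosome library 1 thus enters both the division and the difference. Over all tested genes that were above 0 in exosome library 1, 865 of 3739 (23.1%) had a difference above 0. The 19 fell across the complexes, with 5 in eIF4, 4 in eIF3, 3 in eIF2B, 2 among the elongation factors, 1 each in the eIF1, eIF2 and eIF5 to eIF6 groups and 2 among the remaining factors. In the other 7 libraries at most 4 tested members were at 0.

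**Figure D1:**
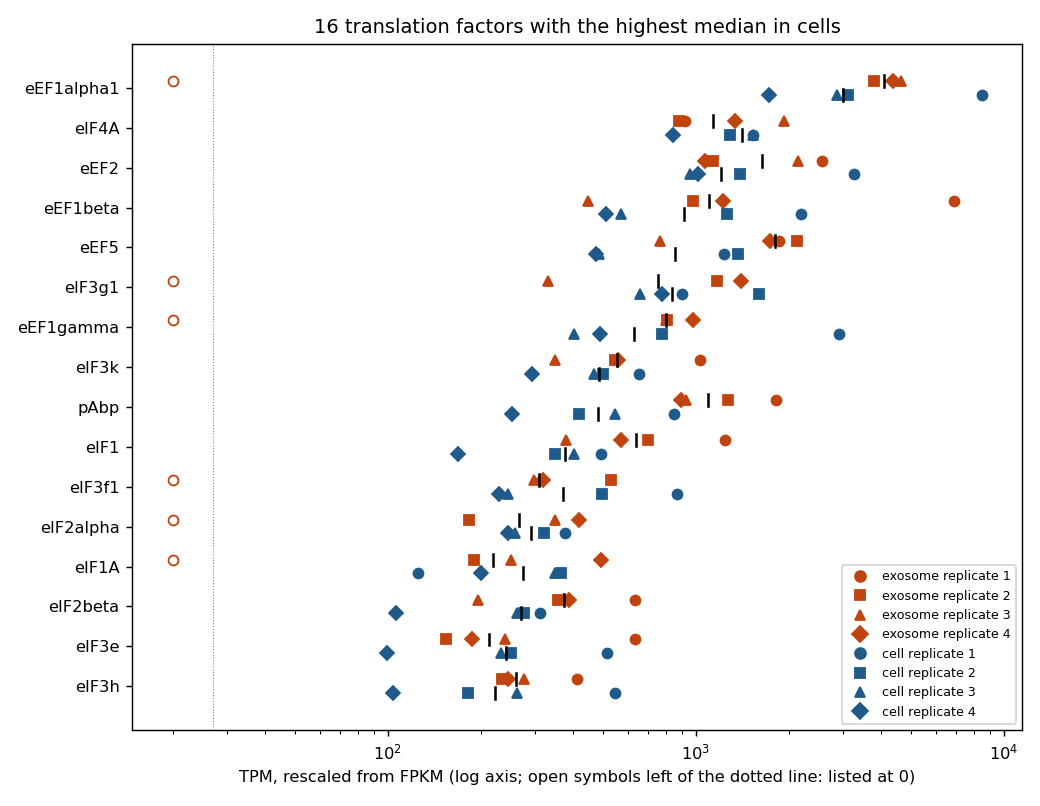
Levels of the 16 members with the highest median in cells, in TPM on a log axis. Symbols are single libraries, short bars are group medians, and open symbols left of the dotted line are listed at 0. Exosome and cell symbols overlap for all of the 16 but pAbp, and 6 of the 16 have exosome library 1 at 0.

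pAbp encodes the cytoplasmic poly(A)-binding protein, which coats mRNA tails. Its level was 1827, 1268, 926 and 897 TPM in the exosome libraries and 849, 419, 546 and 253 in the cell libraries. All exosome libraries were above all cell libraries, although the lowest exosome value (exosome library 4) was close to the highest cell value (cell library 1). Means were 1229.5 ± 432 in exosomes and 517 ± 252 in cells (SD, n = 4 libraries each), with a log2 difference of 1.32 (SE 0.85, limma, adjusted p = 0.569). The means differed by 2.38-fold, which did not pass limma's threshold. Among all genes of its library, pAbp ranked 63, 112, 110 and 129 in the exosome libraries and 146, 241, 219 and 217 in the cell libraries. It made up 8.68%, 7.30%, 5.24% and 4.88% of the summed member values in the exosome libraries, against 2.88%, 2.60%, 3.97% and 2.86% in the cell libraries. The log2 difference stayed between 1.02 and 1.60 when any 1 library was left out, and was 1.11 without exosome library 1. The groups overlapped with FPKM as deposited and when the highest transcript replaced the sum over its 8 transcript models. The model that carried the value differed between libraries: pAbp-RF held all of it in exosome libraries 1, 2 and 4 and in cell library 2, whereas pAbp-RD held 74.8% in exosome library 3 and all of it in cell library 1.

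eIF1 and eIF1A bind the small subunit and help it scan for the start codon. eIF1 had 1239, 701, 378 and 572 TPM in the exosome libraries and 491, 349, 400.5 and 169 in the cell libraries. Exosome library 1 was the highest and cell library 4 the lowest, and exosome library 3 lay below 2 of the cell libraries. Means were 723 ± 369 in exosomes and 352 ± 136 in cells (SD, n = 4 libraries each), with a log2 difference of 1.002 (SE 0.87, limma, adjusted p = 0.605) and 0.70 without exosome library 1. By rank, eIF1 stood at 82, 162, 214 and 165 in the exosome libraries and 239, 272, 295 and 290 in the cell libraries, and all exosome ranks were ahead of all cell ranks. About 11.1 fragments lay behind its value in exosome library 2 and 32.3 in exosome library 3. eIF1A had 0, 190.1, 250.2 and 494 TPM in the exosome libraries and 125, 365, 349.6 and 200.01 in the cell libraries. It was listed at 0 in exosome library 1 and the groups overlapped otherwise, with a log2 difference of -1.78 (SE 1.499, limma, adjusted p = 0.600) that became 0.27 without that library. The median of this pair was -0.39, against 0.09 with quantile normalization and 0.48 without exosome library 1.

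eIF2 carries the initiator tRNA as a complex with GTP, and phosphorylation of its alpha subunit is the usual brake on initiation under stress. eIF2alpha had 0, 183, 348 and 417 TPM in the exosome libraries and 376, 322, 259 and 246 in the cell libraries. Apart from the 0 in exosome library 1 the groups overlapped, with a log2 difference of -2.05 (SE 1.49, limma, adjusted p = 0.578) and a difference of 0.011 without that library. eIF2beta had 636, 357, 196 and 388 TPM in the exosome libraries and 311, 278, 262 and 106 in the cell libraries. Exosome library 1 was the highest of the 8 and cell library 4 the lowest, and the groups overlapped. Means of eIF2beta were 394 ± 182 in exosomes and 239 ± 91.1 in cells (SD, n = 4 libraries each), with a log2 difference of 0.71 (SE 0.87, limma, adjusted p = 0.696) and 0.44 without exosome library 1. eIF2gamma was not counted, because its identifier in the table is shared with another gene.

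eIF2B recharges eIF2 with GTP and has 5 subunits, alpha to epsilon. All 5 were tested, none was called, and all 5 had a log2 difference below 0, as had 5731 of the 6767 genes tested. Differences ran from -1.85 for eIF2Bdelta to -1.004 for eIF2Bgamma, with a median of -1.34, close to the -1.18 of all genes. With quantile normalization the eIF2B median was -0.04 and that of all genes 0.13. These were low messages, between 0 and 85.7 TPM in exosome libraries and between 7.62 and 125 in cell libraries. eIF2Bdelta, the subunit with the largest difference and the highest mean in cells, had 38.3, 0, 85.7 and 22.2 TPM in the exosome libraries and 61.2, 48.6, 125 and 33.7 in the cell libraries, with overlapping groups. eIF2Bbeta, whose mean was the highest in exosomes, had 0, 60.6, 61.3 and 29.9 TPM in the exosome libraries and 64.0, 59.5, 47.1 and 25.0 in the cell libraries, again overlapping. Each subunit was at 0 in at least 1 exosome library: alpha and beta in library 1, gamma and delta in library 2, and epsilon in both. None was at 0 in a cell library. For eIF2Balpha the estimates were 1.0, 2.0 and 12.1 fragments in exosome libraries 2 to 4, so a level of this size could not be told from 0 in the shallower libraries. Intervals from such counts would cover counting error only, and estimates from FPKM steps are approximate. Without exosome library 1, eIF2Balpha and eIF2Bbeta had differences of 0.038 and 0.062, and the other subunits lay between -2.26 and -1.10.

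eIF3 is the largest initiation factor, a scaffold on the small subunit whose core in mammals is built by the subunits a, c, e, f, h, k, l and m, with b, d, g, i and j more loosely attached. Of its 16 genes 13 were tested and 0 called, 8 with a difference above 0 and 5 below, with a median of 0.14. That median was 0.44 with quantile normalization and -0.18 without exosome library 1. eIF3g1, an RNA-binding subunit, had the highest mean in both groups and the largest difference of the complex. Its level was 0, 1171, 331 and 1397 TPM in the exosome libraries and 902, 1601, 658 and 774 in the cell libraries. It was the top eIF3 message in all 4 cell libraries and in exosome libraries 2 and 4, and was at 0 in exosome library 1. limma gave a log2 difference of -2.60 (SE 1.68, adjusted p = 0.569), and -0.18 without that library.

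Trip1 encodes eIF3i, a WD-repeat subunit. Its values were 672, 168, 149 and 237 TPM in the exosome libraries and 439, 249, 149.9 and 114 in the cell libraries. Exosome library 1 stood far above the other exosome libraries, which lay within the cell range. Means were 307 ± 247 in exosomes and 238 ± 146 in cells (SD, n = 4 libraries each), with a log2 difference of 0.27 (SE 0.91, limma, adjusted p = 0.891), and -0.20 without exosome library 1. eIF3a, which spans the complex, had 0, 41.6, 191 and 43.7 TPM in the exosome libraries and 205, 95.7, 133 and 90.7 in the cell libraries. Listed at 0 in exosome library 1 and low in exosome libraries 2 and 4, it had a log2 difference of -2.35 (SE 1.32, limma, adjusted p = 0.569), and -0.81 without library 1. eIF3c had 159.7, 19.4, 187 and 82.7 TPM in the exosome libraries and 259.7, 125, 139 and 122 in the cell libraries, with overlapping groups and a difference of -0.86, or -1.17 without exosome library 1. eIF3d1, a cap-binding subunit in mammals, had 0, 49.8, 245 and 134 TPM in the exosome libraries and 336, 128, 135 and 99.7 in the cell libraries, again with a 0 in exosome library 1. Its difference was -2.12, and -0.39 without that library.

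eIF3k, one of the smallest subunits, led the complex in exosome libraries 1 and 3, with 1034, 548, 348 and 558 TPM in the exosome libraries and 654, 499, 467 and 293 in the cell libraries. Its difference of 0.32 was 0.043 without exosome library 1. eIF3e, eIF3h, eIF3l and eIF3m, further core subunits, had log2 differences of 0.14, 0.32, 0.061 and 0.71, and eIF3b and eIF3j 0.37 and 0.45, each with overlapping groups. Without exosome library 1 the sign turned for eIF3e (-0.30) and eIF3l (-0.26), and eIF3h, eIF3m, eIF3b and eIF3j had 0.14, 0.48, 0.32 and 1.04. eIF3f1 had 0 in exosome library 1 and 298 to 532 in the other exosome libraries, against 229 to 867 in cells, and its difference of -2.23 was -0.094 without exosome library 1. Subunits that assemble as single copies were listed at very unequal levels. Among those above 0, the highest exceeded the lowest by 27.2, 60.2, 2.45 and 32.0-fold in exosome libraries 1 to 4 and by 12.6, 16.7, 7.65 and 13.1-fold in cell libraries 1 to 4. Spread was narrowest in the libraries numbered 3 of both groups.

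**Figure D2:**
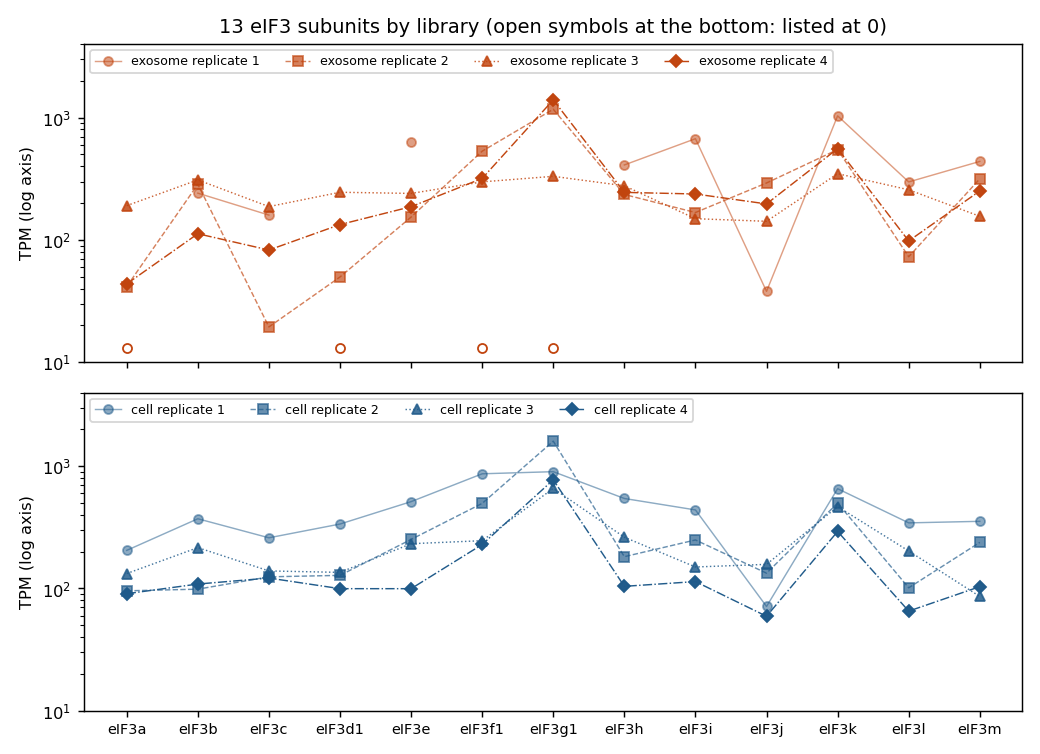
Levels of the 13 tested eIF3 subunit mRNAs in TPM on a log axis, exosome libraries above and cell libraries below, with a line for each library. Open symbols at the bottom are listed at 0 and are not joined. Exosome library 3 has the flattest profile, and eIF3g1 is the highest subunit in the 4 cell libraries.

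Of the 13 eIF4 genes 8 were tested, 0 called, 1 above 0 and 7 below, with a median of -0.57 that was 0.11 with quantile normalization and -0.04 without exosome library 1. Over all 6767 genes tested, 5731 were below 0 and the median was -1.18. eIF4A, the helicase that unwinds leaders, was the most abundant eIF message by mean in both groups. Its level was 924, 882, 1934 and 1341 TPM in the exosome libraries and 1538, 1289.6, 1529 and 840.3 in the cell libraries. The groups overlapped widely, with means of 1270.3 ± 489 in exosomes and 1299 ± 327 in cells (SD, n = 4 libraries each). limma gave a log2 difference of -0.067 (SE 0.84, adjusted p = 0.969), and the sign turned to 0.28 with quantile normalization and to 0.060 without exosome library 1. eIF4G1, the scaffold that joins the cap-binding protein, eIF4A and pAbp, was much lower, with 0, 38.9, 223 and 13.4 TPM in the exosome libraries and 80.3, 26.1, 210.3 and 34.9 in the cell libraries. The libraries numbered 3 had by far the highest values of both groups, and exosome library 1 was at 0. limma gave a log2 difference of -1.76 (SE 1.398, adjusted p = 0.589), and -0.34 without exosome library 1. On this scale, which is per length, and set against eIF4G1 in the same library, eIF4A was 22.7, 8.66 and 100.3-fold higher in exosome libraries 2 to 4 and 19.2, 49.4, 7.27 and 24.1-fold higher in cell libraries 1 to 4.

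eIF4E1, the main cap-binding protein, had 281, 70.4, 186 and 179 TPM in the exosome libraries and 399, 115.2, 223 and 66.4 in the cell libraries, with overlapping groups. limma gave a log2 difference of -0.013 (SE 0.94, adjusted p = 0.994), and -0.28 without exosome library 1. eIF4B and eIF4H1, which assist the helicase, had differences of 0.19 and -1.08, which became 0.85 and 0.61 without exosome library 1, so that the sign of eIF4H1 turned. Lower still were eIF4EHP, a cap-binding protein that represses messages, the second scaffold gene eIF4G2 and the paralog eIF4E6, which ranged from 0 to 64.6 TPM in exosomes and from 1.81 to 82.1 in cells. Their differences were -1.18, -1.15 and, for eIF4E6, close to 0, and all were at 0 in exosome library 1. Without that library they were -0.14, -0.28 and 1.11.

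The factors of subunit joining included eIF5, eIF5B and eIF6. eIF5 makes eIF2 hydrolyse its GTP, eIF5B is the GTPase of joining, and eIF6 keeps free large subunits apart from small ones. eIF5 had 0, 106, 144 and 84.0 TPM in the exosome libraries and 74.6, 69.9, 166 and 27.3 in the cell libraries, with a 0 in exosome library 1 and overlap otherwise. Its difference of -1.06 turned to 0.63 without that library. eIF5B had 149, 46.0, 113 and 56.8 TPM in the exosome libraries and 75.6, 44.4, 169.8 and 36.6 in the cell libraries, and the groups overlapped, with a difference of 0.27 that turned to -0.021 without exosome library 1. eIF6 had 85.2, 71.2, 111 and 120.0 TPM in the exosome libraries and 197, 69.4, 65.6 and 43.0 in the cell libraries, also overlapping, with 0.26 and 0.31. None of the 3 was called.

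Also taken by symbol were 4 genes that act outside this main route. eIF2A had 420.4, 39.8, 179 and 113 TPM in the exosome libraries and 289, 126, 61.8 and 96.1 in the cell libraries, with overlapping groups and a difference of 0.16 that turned to -0.38 without exosome library 1. eIF2D, which can load or recycle tRNA, had 0, 112, 14.2 and 0 TPM in the exosome libraries and 30.6, 27.2, 26.6 and 22.6 in the cell libraries, so that 2 exosome libraries were at 0 and exosome library 2 was far above all others on about 6.0 fragments. Without exosome library 2, every exosome value of eIF2D was below every cell value, and it was still not called. That separation follows from leaving out the 1 high value, and the share of all genes separating in that setting was not counted. Its difference was -2.10 with all libraries and -1.21 without exosome library 1. eIF4AIII, a core helicase of the exon junction complex, lay between 0 and 23.7 in exosomes and between 3.34 and 99.5 in cells, with a difference of -1.32, or -0.21 without exosome library 1. eEFSec, the selenocysteine elongation factor, did not exceed 4.64 in any library.

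Elongation factors held much of the member total, with 54.6%, 51.7%, 50.5% and 51.8% in the exosome libraries and 62.0%, 50.02%, 40.5% and 48.2% in the cell libraries. eEF1alpha1, which brings aminoacyl-tRNA to the ribosome, was the highest member in 7 of the 8 libraries. It had 0, 3784, 4618 and 4349.6 TPM in the exosome libraries and 8492, 3123, 2866 and 1724 in the cell libraries. The 3 exosome libraries above 0 overlapped the cells, where cell library 1 stood highest. limma gave a log2 difference of -2.69 (SE 1.98, adjusted p = 0.580), and 0.32 without exosome library 1. With both libraries numbered 1 left out the difference was 0.77 and the groups no longer overlapped, as was so for eEF1gamma, eIF6 and pAbp. The share of all genes separating in that setting was not counted, and it left out both the lowest and the highest value of eEF1alpha1. A near-identical paralog, eEF1alpha2, was at 0 in all exosome libraries and at most 1.76 in a cell library, and the sources used here do not say how fragments were divided between such copies.

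The exchange subunits that recharge eEF1alpha behaved unlike it in exosome library 1. eEF1beta had 6889, 981, 445 and 1229 TPM in the exosome libraries and 2195, 1264, 570.2 and 510.4 in the cell libraries. Exosome library 1 was far above the next exosome library, and the other exosome values lay within the cell range or just below it. limma gave a log2 difference of 0.55 (SE 0.995, adjusted p = 0.788), and -0.22 without exosome library 1. eEF1gamma, the structural subunit of the same complex, had 0, 808, 798 and 979 TPM in the exosome libraries and 2905, 775, 401 and 487 in the cell libraries. It was at 0 in exosome library 1 and highest in cell library 1, with a log2 difference of -2.36 (SE 1.70, limma, adjusted p = 0.575) and 0.074 without exosome library 1. eEF1delta was steadier in exosomes, at 159.7, 142, 137 and 160.4 TPM in the exosome libraries and 179, 129.95, 286 and 60.9 in the cell libraries, with a log2 difference of 0.071 (SE 0.89, limma, adjusted p = 0.969) and 0.038 without exosome library 1.

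eEF2, the translocase, had 2567, 1136, 2151 and 1067 TPM in the exosome libraries and 3269, 1396, 955 and 1013 in the cell libraries. Its groups overlapped, with means of 1730.2 ± 746 in exosomes and 1658 ± 1092 in cells (SD, n = 4 libraries each) and a log2 difference of 0.15 (SE 0.87, limma, adjusted p = 0.941). Without exosome library 1 that sign turned, to -0.075. eEF5, known as eIF5A in other species, carries the hypusine residue and helps ribosomes through difficult peptide sequences. It had 1868, 2125, 767 and 1737 TPM in the exosome libraries and 1231, 1369, 485 and 475 in the cell libraries. Exosome libraries 1, 2 and 4 were above all cell libraries and exosome library 3 was not. Means were 1624 ± 594 in exosomes and 889.7 ± 477 in cells (SD, n = 4 libraries each), with a log2 difference of 0.94 (SE 0.87, limma, adjusted p = 0.621) and 0.84 without exosome library 1. Over the 6 tested elongation factors the median difference was 0.11, with 4 above 0 and 2 below, and it was 0.38 with quantile normalization and 0.056 without exosome library 1.

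**Figure D3:**
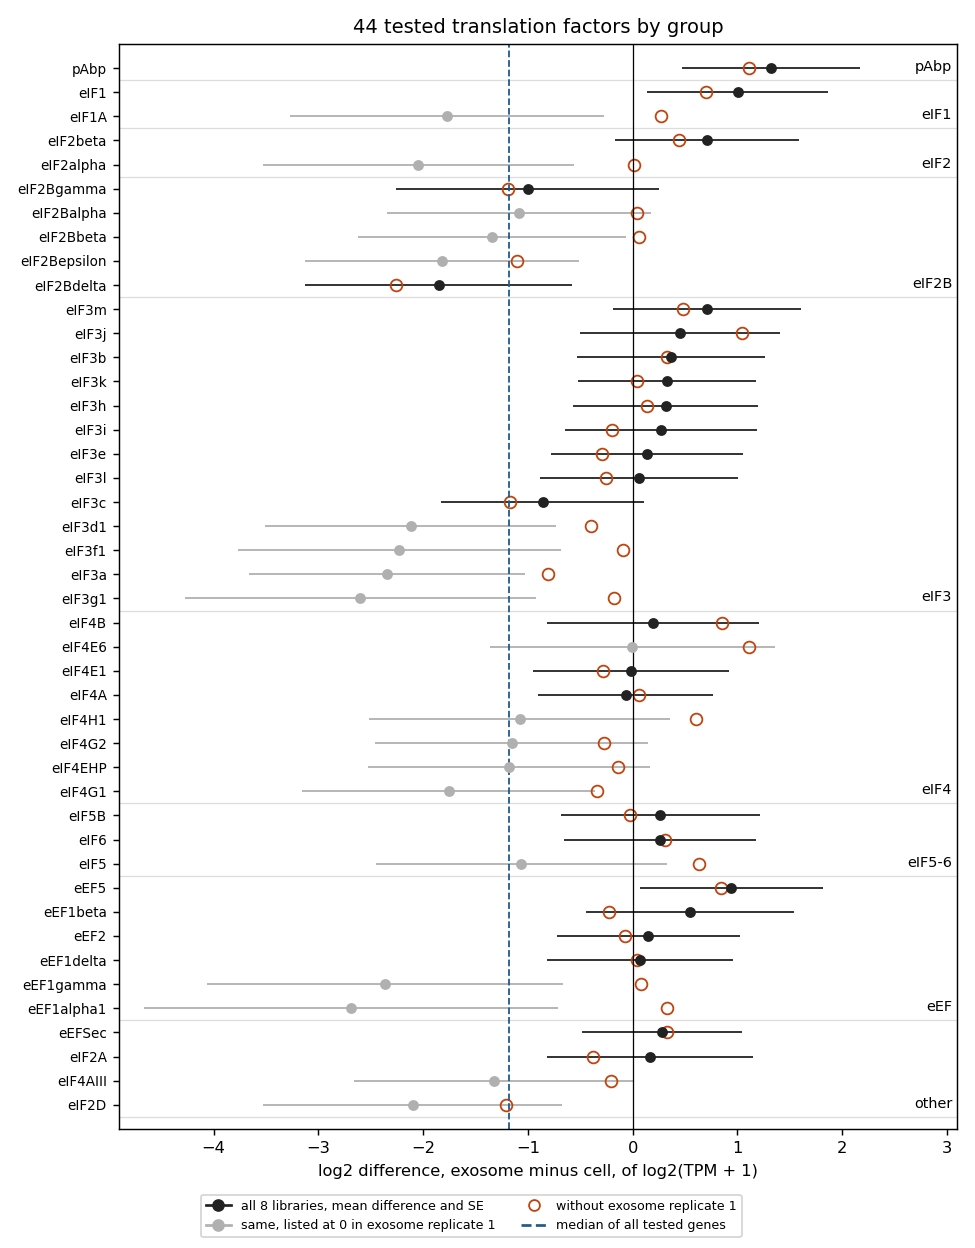
Log2 difference (exosome minus cell, log2 of TPM plus 1) for the 44 tested members from limma, with all 8 libraries (filled, with standard errors, grey where exosome library 1 is at 0) and without exosome library 1 (open). The dashed line is the median of all genes tested, -1.18. pAbp is highest at 1.32, and grey points move upwards without exosome library 1.

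The 9 members that were not tested are paralogs of tested members. eIF3d2, eIF3g2, eIF4E4 and eIF4E7 were listed at 0 in all 8 libraries. eIF4E3 was listed at 6.69 in exosome library 3, a value of about 1.0 fragment, and at 0 elsewhere. No exosome library listed eIF4H2 above 0, and cell libraries 1 and 3 had 16.2 and 2.54. eEF1alpha2 is described above. eIF3f2 had 0.230, 0, 0 and 0 TPM in the exosome libraries and 0.201, 0, 0 and 0 in the cell libraries, and eIF4E5 was at 0.192 in exosome library 1 and at 0 elsewhere. At the depth of exosome library 2, messages of this level were not detectable.

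Summed, the 53 members held 2.10%, 1.74%, 1.77% and 1.84% in the exosome libraries and 2.94%, 1.61%, 1.37% and 0.886% in the cell libraries. The exosome libraries lay close together and inside the cell range, which was wide. Means were 1.86% ± 0.167 in exosomes and 1.70% ± 0.881 in cells (SD, n = 4 libraries each), a difference of 0.158 percentage points that was smaller than the spread of the cell libraries. It was 0.572 without cell library 1 and -0.115 without cell library 4. The sum in exosome library 1 was made up differently. There 19 of 44 tested members, eEF1alpha1 among them, were at 0, and eEF1beta alone had 6889 TPM. Within the member total, eIF3 held 18.7%, 22.4%, 17.7% and 21.0% in the exosome libraries and 19.9%, 26.1%, 22.5% and 25.5% in the cell libraries. eIF4 held 5.8%, 7.59%, 15.3% and 9.42% in the exosome libraries and 7.43%, 9.76%, 18.3% and 11.4% in the cell libraries, highest in the libraries numbered 3 of both groups. The order of complexes (elongation factors first, then eIF3, then eIF4 ahead of pAbp) held in 7 libraries, and in exosome library 1 pAbp was ahead of eIF4.

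**Figure D4:**
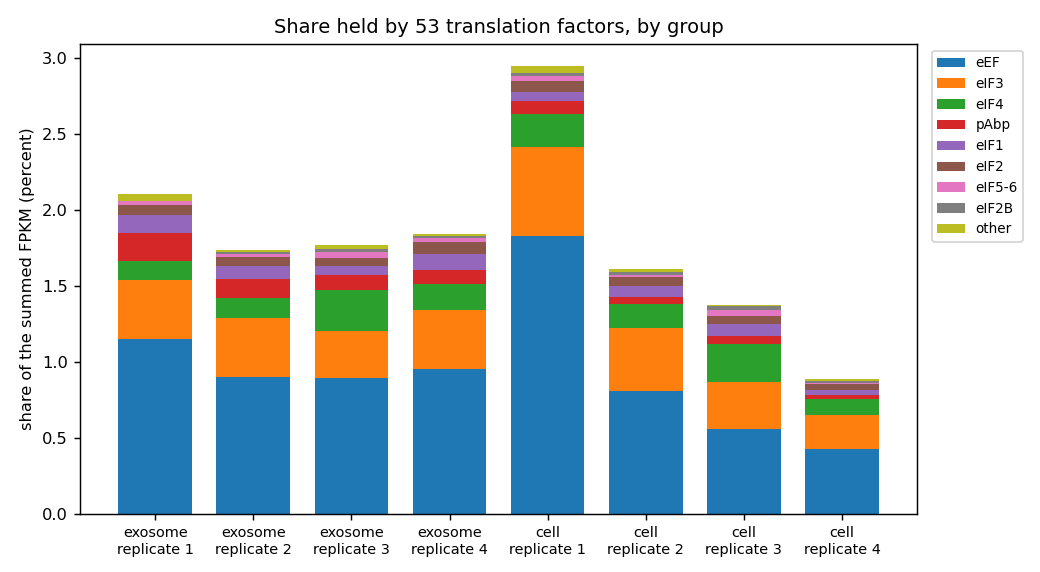
Share of the summed FPKM held by the members in each library, in percent, divided by complex. Bars are single libraries and start at 0. The 4 exosome libraries hold between 1.74% and 2.10%, and the cell libraries between 0.886% and 2.94%.

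The profile over the members was much alike between sources, exosome library 1 apart. Spearman's rho over the 44 members was between 0.83 and 0.96 among cell libraries. Against the cell libraries it was 0.439 to 0.521 for exosome library 1, 0.806 to 0.870 for library 2, 0.887 to 0.917 for library 3 and 0.886 to 0.974 for library 4. Over all genes tested the corresponding ranges were 0.606 to 0.824 among cells and 0.192 to 0.327, 0.464 to 0.575, 0.616 to 0.780 and 0.600 to 0.850 for exosome libraries 1 to 4. These values describe the libraries, and the genes in them are not independent replicates.

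Length of the message was related to the values of some libraries in both sources. Each member's log2 value in a library, minus its mean over the other 7, was set against the median transcript length in the Release 6 annotation, which ran from 677 bases (eIF4E6) to 8093 (eIF4G2). Spearman's rho over the members was 0.66 in exosome library 3 and -0.40 in exosome library 4, and 0.34 in cell library 3 and -0.23 in cell library 2. Over all genes the values were 0.35, -0.50, 0.34 and -0.43 in the same libraries. The libraries numbered 3 thus listed the long messages eIF4G1 and eIF4G2 higher than the other libraries did, in exosomes and cells alike. In exosome libraries 1 and 2 and cell libraries 1 and 4, rho was -0.13, -0.29, 0.24 and 0.20 over the members. Over all genes it was -0.18, -0.03, 0.11 and 0.13 in those libraries. With only genes above 0 in exosome library 1, it was -0.14 for the members and -0.59 for all genes. Over the exosome minus cell difference itself rho was -0.28 for the members and -0.19 for all genes. These values are descriptions across genes, and the part of length in any difference between groups was not tested.

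**Figure D5:**
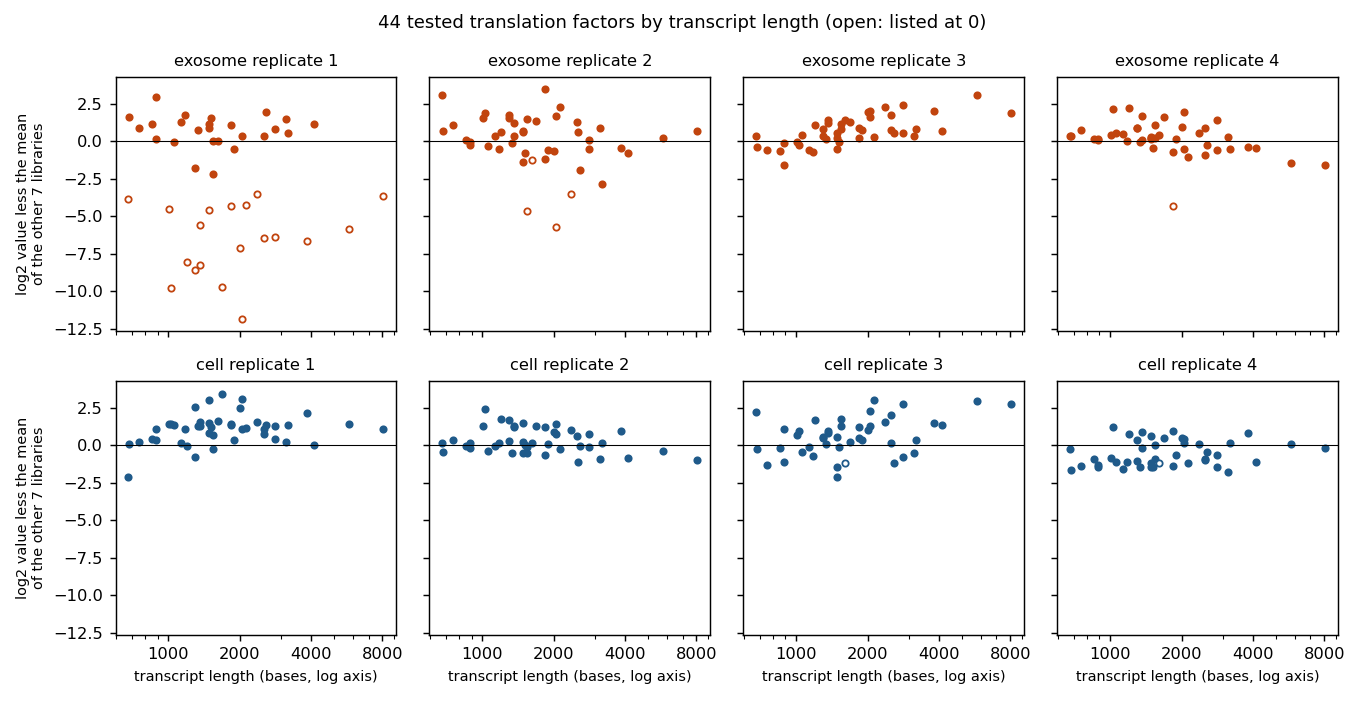
Transcript length in bases (log axis) against the log2 value of a member in 1 library minus its mean over the other 7, for the 44 tested members. Each panel is a library and open points are listed at 0. The slope is upward in exosome library 3 (rho 0.66) and downward in exosome library 4 (rho -0.40).

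Other genes of translation were read from lists beside the members, and limma called none of them. Of 5 genes of termination and ribosome recycling, 1 had a difference above 0, with a median of -0.34, and eRF3, the GTPase of termination, had the largest at -2.06. With quantile normalization that median was 0.56, and without exosome library 1 it was -0.11. eRF3 was at 0 in exosome library 2 and was highest of the 8 libraries in exosome library 3 (250 TPM). Among 19 regulators of initiation 3 were above 0, with a median of -0.89. Without exosome library 1 the median was -0.097, with 9 of 19 above 0, and with quantile normalization it was -0.25. In this list larp, which binds messages of the translation machinery, had -3.22, or -2.36 without exosome library 1. PEK, an eIF2alpha kinase, had -2.80, or -2.03 without that library. Both were at 0 in exosome libraries 1 and 2, and larp was highest of the 8 libraries in exosome library 3 (249 TPM). Thor, the repressor that binds eIF4E and the highest of these messages, was chosen after its values were seen. It had 4261, 1880.0, 1882 and 1224 TPM in the exosome libraries and 981, 893, 7762 and 659.5 in the cell libraries, so that cell library 3 exceeded all others.

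The enzymes that modify eEF2 with diphthamide and eEF5 with hypusine had 6 tested genes of 7, with 2 above 0 and a median of -0.86, which turned to 0.065 without exosome library 1, with 4 of 6 above 0. Dph3, of the diphthamide route, was at 0 in all 4 exosome libraries and had 53.4, 163, 62.6 and 65.4 in cell libraries 1 to 4. Its adjusted p of 0.125 (limma) was the lowest of the whole table and did not pass. nero, the hydroxylase that completes hypusine, had -2.90, and -2.12 without exosome library 1, and was at 0 in exosome libraries 1 and 2. All 10 tested factors of mitochondrial translation were below 0, with a median of -1.21 close to the -1.18 of all genes, and mIF2, the initiation factor of mitochondria, had -1.90. With quantile normalization that median was 0.42, and without exosome library 1 it was -1.44. Most of the 10 were listed at 0 in exosome library 2. Without that library their median was -0.51, against -0.88 for all genes.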

How the data were processed

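Values per transcript for 8 libraries were taken as FPKM made by the authors. Per the submitters' processing notes the tools were TopHat2, Cufflinks and DESeq2 on build dm3, with no versions or roles, and Cufflinks writes FPKM. The sources used here do not say whether strand was used. The 21081 deposited transcripts were summed to 14012 genes and each library was rescaled to 1000000 (the TPM formula). Of the identifiers, 13531 matched a current symbol in the Release 6 table, and 45 members carry another symbol in the file. Release 6 gave names and lengths, and no coordinates are printed.

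Tests used genes exceeding 1 TPM in 4 or more libraries, on log2(TPM + 1), with limma 3.58.1 (R 4.3.3, moderated test with trend, no block, Benjamini-Hochberg at 0.05 over 6767 genes), after a test on simulated data. Tables were made with Python 3.11.15 and pandas 2.3.3. Depth was estimated from FPKM steps, where 67.3% to 84.4% of low values in 6 libraries lay within 0.15 of a whole number of fragments, against 30.0% if evenly spread. In exosome library 1 and cell library 1 it was 39.3% and 31.0%, and no depth was taken. Over the 16 tested members with transcripts of 1 length, the median estimate was 4.65 fragments in exosome library 2, 29.1 in exosome library 3, 165.7 in exosome library 4, and 376.5, 37.8 and 54.4 in cell libraries 2 to 4.

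Members and lists were chosen with earlier results of these data known. Values in every library are given for pAbp, Trip1 and, in each complex, for the highest member, the one with the largest difference and any whose groups do not overlap; others shown this way were chosen after their values were seen. From each other list at most the 2 largest differences are named, and Thor beside them. In the list of modifying enzymes 1 gene that is no such enzyme was dropped and 1 symbol was respelled in the list of regulators after the files were read. Markers of other cell types had 3 tested genes of 19, none called. Alternatives covered scaling, pseudocount, filter, transcript choice, replicate block and leaving out libraries. Transposon values were not analysed here.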

Additional observations from a re-analysis of the deposited data

Results flagged for a closer look

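Among 88 sets of 4 libraries (44 tested members in exosomes and in cells), 6 held 1 library far from the other 3 relative to the range. Chance alone would give about 1 in 20 such sets if values were normally distributed and independent. The members share the same libraries, so the sets are not independent, and the rate for these values was not tested. Of the 6, 5 fell in the libraries numbered 1. eEF1beta, an exchange subunit of eEF1, was at 6889 TPM in exosome library 1, where the other exosome libraries had 445 to 1229. eIF3i was at 672 in exosome library 1, against 149 to 237 in the others. eEF1gamma reached 2905 in cell library 1, with 401 to 775 in the other cell libraries. The eIF3 subunits eIF3c and eIF3d1 were at 260 and 336 in cell library 1, against 122 to 139 and 99.7 to 135. eIF2D was at 112 in exosome library 2, against 0 to 14.2 in the other exosome libraries. In exosome library 1, eEF1beta and eIF3i were thus at their highest while eEF1gamma and eIF3d1, subunits of the same complexes, were listed at 0.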

How the results depend on the processing

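No member was called under any of the 17 alternatives. Over the whole table limma called 0 to 1 genes when any 1 library was left out (1 without exosome library 1) and 2 with both libraries numbered 1 left out, none of them a member. The replicate block called 0 genes as well, with 15 higher and 669 lower at an unadjusted p under 0.05, and gave the members a lowest adjusted p of 0.449 (limma). Deviations of each library from its group mean were correlated over genes (Pearson) between exosome and cell libraries. Same-numbered libraries gave 0.261, 0.159, 0.399 and 0.037. Exosome libraries 1, 2 and 3 each matched their same-numbered cell library best, but exosome library 4 matched cell library 2 best (0.369). Because library 4 broke the match, the block was given as an alternative and not taken as a pairing.

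The number of members with every exosome value above every cell value was 0 with FPKM as deposited and with the highest transcript, 3 with quantile normalization, 2 by rank, 4 with both libraries numbered 1 left out and 1 to 4 when any 1 library was left out (4 without exosome library 3). Over all genes, 10 (0.148%) separated upwards in the main setting and 91 (1.34%) by rank. Under the other settings the share over all genes was not counted, so those counts have no background to be read against. The sign of eIF4A turned with quantile normalization (0.28) and with both libraries numbered 1 left out (0.15), and that of eIF2alpha (0.13) and eEF1alpha1 (0.77) with the latter. Leaving out 1 library moved eIF4A between -0.29 and 0.083, eIF2alpha between -2.89 and 0.011, eEF1alpha1 between -3.73 and 0.32, eIF1A between -2.72 and 0.27 and eIF3i between -0.20 and 0.63. The cause was not tested. Ranks and shares without a library were added after seeing the data. The planned promoter search was not run. Depth limits exosome library 2, where 11 of 16 members with an estimate rested on fewer than 10 fragments.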

Other observations

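The identifier shared by eIF2gamma, the GTP-binding subunit of eIF2, and Su(var)3-9, a histone methyltransferase, had 0, 104, 143 and 58.2 TPM in the exosome libraries and 217, 107, 154 and 75.8 in the cell libraries. Its values cannot be divided between these genes, and it was at 0 in exosome library 1 like eIF2alpha. Among members with several transcript models, eIF3a changed model between libraries: its model RA held all of the value in cell libraries 1, 3 and 4, 60.8% in cell library 2, 0% in exosome library 2, 52.2% in exosome library 3 and 34.0% in exosome library 4.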
